A study of Mus musculus with 8 samples.

Results

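The genes described here are the 7 MHC class II antigen presentation genes H2-Aa, H2-Ab1, H2-Eb1, H2-DMa, H2-DMb1, Cd74 and Ciita. They were chosen by name, and all 7 were found among the 13677 genes of the deposited table. MHC class II molecules are heterodimers of an alpha and a beta chain that show peptides from ingested material to CD4+ T cells. They are made mainly by dendritic cells, macrophages and B cells, and in the heart by resident macrophages and dendritic cells. The invariant chain, encoded by Cd74, fills the groove of new dimers, and H2-DM later swaps its remnant for peptide. Transcription of the other genes of the group depends largely on CIITA, the co-activator that Ciita encodes. CIITA docks on RFX, CREB and NF-Y factors bound to the conserved X and Y boxes of class II promoters.

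Polyadenylated RNA of mouse ventricular heart tissue was sequenced in 8 libraries, which the labels divide into C (n = 3), KO (n = 2, numbered 1 and 3) and DKO (n = 3). The series sets Vhl-deficient against wild-type ventricles in a Wt1-Cre model, in which Cre follows Wt1, a gene of the epicardium. All samples are labelled as untreated, and the labels do not spell out C, KO or DKO, the second change in DKO, or the strain and age. Every direction is therefore one between libraries carrying these labels, nothing states that they come from separate animals, and a p-value here describes the spread among libraries, which may be technical. Vhl itself encodes the part of a ubiquitin ligase that binds hypoxia-inducible factors. Its signal was 7.26 to 8.97 in C, 8.33 and 8.96 in KO and 8.61 to 11.2 in DKO, so its whole-gene level does not check the labels.

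Depth was 15028176 to 21202385 reads in the 8 libraries, and values are the deposited signal, a read count scaled to the effective size of its library. That size over the total reads was 0.925, 0.964 and 0.930 in C, 1.37 and 1.36 in KO, and 1.06, 0.705 and 0.865 in DKO 1, DKO 2 and DKO 3. All levels below rest on this scaling, which differs by group, and levels per total read were not compared. Of 7 ventricular cardiomyocyte markers all were in the table, and their summed signal was 57977 to 60845 in C, 34077 and 38481 in KO and 34402 to 56848 in DKO. DKO 2 stood apart with 41.6% of its reads from the mitochondrial genome, against 16.2% to 29.9% in the other 7 libraries. Some genes listed as markers of skeletal muscle and fibroblasts, and Nppa of the atrial list, also moved with the groups, and which cells they came from was not tested. The fast skeletal muscle gene Myh4 was 17.4 to 128 in C and 0.49 to 4.77 in DKO. In both KO libraries it was below the signal that 3 reads would give (at least 0.104). Of 7 skeletal muscle genes 7 fell in KO against C, where 7.01% of all tested genes fell. In DKO against C 5 fell, also with edgeR but 0 with voom, where limma called 0.0812% of tested genes lower. Ckm of this list was still 1447 and 1758 in KO, beside 3703 to 4239 in C and 2287 to 4052 in DKO, so the list does not mark skeletal muscle alone. Of 4 atrial genes 1, the natriuretic peptide gene Nppa, rose in KO against C, where 6.9% of tested genes rose. Nppa was 220.3 to 429.9 in C, 2423 and 1624 in KO and 194 to 428 in DKO. The other 3 (Myl7, Myl4 and Sln) did not pass, and Myl7 varied by library, at 4.50, 57.2 and 1.02 in C, 26.6 and 0.988 in KO, and 16.1, 6.37 and 0.374 in DKO. Of 7 fibroblast genes 3 rose in KO against C, beside the same 6.9%. Their part in the class II values was not tested. In whole tissue, more cells of a type and more RNA per cell cannot be told apart.

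The promoters are shown first as background, since X and Y boxes are the sequences to which the class II activators bind. Whether these sequences had a part in the members' levels was not tested. RefSeq's promoter table (GRCm38.p6) held 4 of the 7 genes, all on chromosome 17. The 250 bases before the start of H2-Eb1, the beta chain of the E isotype (chr17:34305617-34305866, plus strand), and of H2-Aa, the alpha chain of the A isotype (chr17:34287824-34288073, minus strand), read as follows, 5′ to 3′, with the motif matches in capitals.
H2-Eb1: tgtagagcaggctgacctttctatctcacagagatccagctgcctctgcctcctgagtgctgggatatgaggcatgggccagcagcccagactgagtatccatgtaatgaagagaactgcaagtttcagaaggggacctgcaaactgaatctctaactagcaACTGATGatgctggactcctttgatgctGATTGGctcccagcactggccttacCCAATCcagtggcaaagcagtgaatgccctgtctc
H2-Aa: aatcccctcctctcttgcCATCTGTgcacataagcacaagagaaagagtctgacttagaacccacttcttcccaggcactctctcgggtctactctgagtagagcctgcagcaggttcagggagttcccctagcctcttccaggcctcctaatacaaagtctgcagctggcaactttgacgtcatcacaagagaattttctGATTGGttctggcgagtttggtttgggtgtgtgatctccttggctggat
The motifs searched on both strands were an X box core, ACNGATG, and a Y box, GATTGG, with their letters chosen with these promoters in view, and no matches of the 2 motifs overlapped in these windows. In H2-Eb1 the X box core starts 88 bases and the Y box 60 bases before the start, with 21 bases between them, and a second Y box match lies on the opposite strand. In H2-Aa a Y box starts 49 bases before the start, and the core letters occur 232 bases before it on the opposite strand, with 176 bases between them. That far match need not be the X box of H2-Aa, since boxes with other letters, nearer its Y box, would be missed by this search. H2-DMb1, the beta chain of H2-DM, has the X box core on its plus strand, shown within 30 bases at chr17:34153088-34153117:
H2-DMb1: gtttacctagtaACTGATGatgctaggctg
Its Y box follows 22 bases after the core. Neither window of H2-DMa, the alpha chain of H2-DM, holds the X box core. Of 32851 windows of 250 bases in the table, 8.31% held the X box core and 14.6% the Y box, while 1.18% held both. A match is a description of letters and does not show that a factor binds there.

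None of the 7 genes passed the test between any pair of groups. In the libraries labelled KO their scaled levels lay close to C, with a median difference of 0.07 on the log2(signal + 1) scale against 0.0082 over all 13544 tested genes. In DKO all 7 differences from C were positive, with a median of 0.43 against 0.012 over all tested genes, but the median was 0.18 without DKO replicate 1. Ciita was the exception, being above every C and KO library in all 3 DKO libraries. Of tested genes, 6.5% had DKO above C without overlap and 20.5% had DKO above KO.

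Cd74 was the most abundant member. Its signal was 210.1, 155 and 181 in C 1, C 2 and C 3, 153 and 187 in KO 1 and KO 3, and 341, 209.9 and 169.6 in DKO 1, DKO 2 and DKO 3. DKO 1 was the highest library and the other 7 overlapped between groups. H2-Ab1, the beta chain of the A isotype, was 65.8, 52.7 and 56.9 in C, 60.2 and 62.2 in KO, and 114, 70.9 and 57.5 in DKO. Its KO values lay inside the range of C, while DKO 1 and DKO 2 lay above it. H2-Aa was 60.2, 46.3 and 51.4 in C, 52.8 and 59.6 in KO, and 101, 63.3 and 55.4 in DKO. H2-Eb1 was 62.1, 47.2 and 51.2 in C, 60.7 and 62.4 in KO, and 108, 68.4 and 54.0 in DKO. For both chains, as for H2-Ab1, DKO 1 was the highest library, C 2 the lowest, and DKO 3 lay within the range of C.

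The peptide exchange genes had a lower signal, and so fewer reads. H2-DMa was 6.58, 5.39 and 4.79 in C, 5.41 and 5.91 in KO, and 12.1, 8.45 and 5.91 in DKO, from 77 to 263 reads per library. DKO 1 and DKO 2 were above all C and KO libraries and DKO 3 was not. H2-DMb1 was 4.62, 3.95 and 3.99 in C, 5.61 and 5.63 in KO, and 8.20, 6.09 and 3.49 in DKO. Both KO libraries were above all 3 C libraries, and DKO 3 was the lowest of the 8. H2-DMb2, a close copy of H2-DMb1 with 0.641 to 1.59, can share reads with it, so the split between them is uncertain. H2-DMa overlaps 360 exonic bases of Brd2 on the opposite strand, and the strand setting is not given in the sources used here. Brd2 was 64.6 to 69.0 in C, 77.2 and 78.1 in KO and 61.9 to 84.6 in DKO, and its part in the H2-DMa values was not tested.

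Ciita (ENSMUSG00000022504, GRCm38 chromosome 16, 10480059 to 10528418) was the least abundant member, with 22 to 90 reads per library. Its signal was 2.05, 1.36 and 2.50 in C, 2.30 and 1.68 in KO, and 4.16, 3.73 and 3.77 in DKO. The lowest DKO library was thus above the highest of C and KO, although counting error alone gave an exact 95% Poisson interval of 1.77 to 3.37 for C 3 and 2.62 to 5.03 for DKO 2. Ciita shares 329 of its 9535 exonic bases with Dexi on the opposite strand. Dexi was 24.8 to 29.99 in C, 32.3 and 33.4 in KO and 22.6 to 32.2 in DKO, with overlap between DKO and C, and its part in the Ciita values was not tested.

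**Figure D1:**
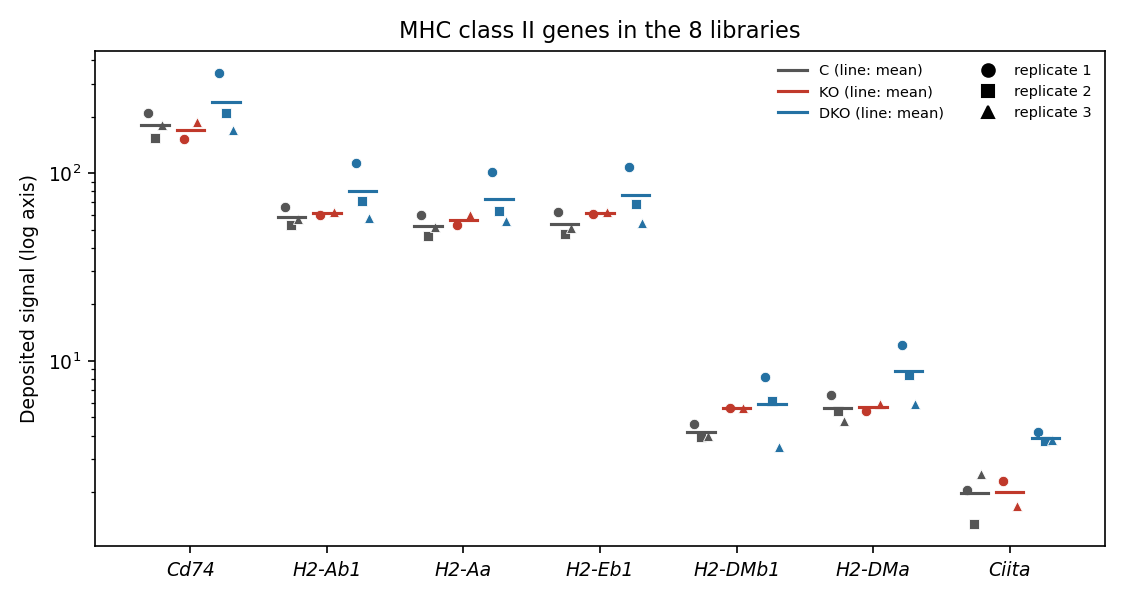
Deposited signal (log axis) of the 7 genes, ordered by signal per kilobase, with a point for each library, coloured by group and shaped by replicate number, and a line at each group mean. DKO 1 is the highest library for all 7 genes, and the 3 DKO libraries of Ciita, at 3.73 to 4.16, lie above the 5 others.

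Per kilobase of the longest coding transcript in the basic set of GENCODE M21 (1128 bases for H2-Aa), signal over the 8 libraries was 142 ± 43.2 (SD, n = 8) for Cd74, 55.7 ± 16.1 for H2-Ab1, 54.3 ± 15.2 for H2-Aa and 38.5 ± 11.4 for H2-Eb1. It was 3.70 ± 1.09 for H2-DMb1, 3.40 ± 1.20 for H2-DMa and 0.449 ± 0.176 for Ciita. Cd74 was above H2-Ab1, H2-Aa above H2-Eb1, H2-Eb1 above H2-DMb1 and H2-DMa above Ciita in 8 of 8 libraries. The place of H2-Aa depends on the transcript, since over its longest annotated transcript of 3223 bases it had 19.0 ± 5.31 per kilobase, below H2-Eb1. H2-Ab1 and H2-Aa did not keep an order, since H2-Ab1 was the higher in 6 of 8 libraries with a ratio of 0.967 to 1.06. H2-DMb1 was above H2-DMa in 6 of 8 libraries, with a ratio of 0.843 to 1.48.

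The chains kept nearly fixed proportions while their levels moved. The ratio of H2-Aa to H2-Ab1 signal was 0.877 to 0.963 over the 8 libraries, so its highest was 1.10 times its lowest, while H2-Ab1 itself ranged from 52.7 to 114. The ratio of H2-Eb1 to H2-Ab1 was 0.896 to 1.01 and that of H2-Ab1 to Cd74 was 0.313 to 0.395. The pair of H2-DM was looser, with H2-DMa over H2-DMb1 at 1.20 to 1.42 in C, 0.965 and 1.05 in KO and 1.39 to 1.69 in DKO. Both KO ratios were below all others, a difference that was not tested. Ciita over H2-Ab1 ranged most, from 0.0257 in C 2 to 0.0656 in DKO 3. Ratios within a library show unequal levels, not which gene moved.

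Relative to the mean of C, DKO 1 stood at 1.88 for Cd74, 1.93 for H2-Aa, 1.95 for H2-Ab1, 2.02 for H2-Eb1, 1.96 for H2-DMb1, 2.17 for H2-DMa and 2.11 for Ciita. DKO 2 stood at 1.15 for Cd74 to 1.51 for H2-DMa, apart from Ciita at 1.89. DKO 3 stood at 0.833 for H2-DMb1 to 1.06 for H2-DMa, whereas Ciita was at 1.92. In DKO 3 Ciita therefore lay apart from the 6 other members.

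**Figure D2:**
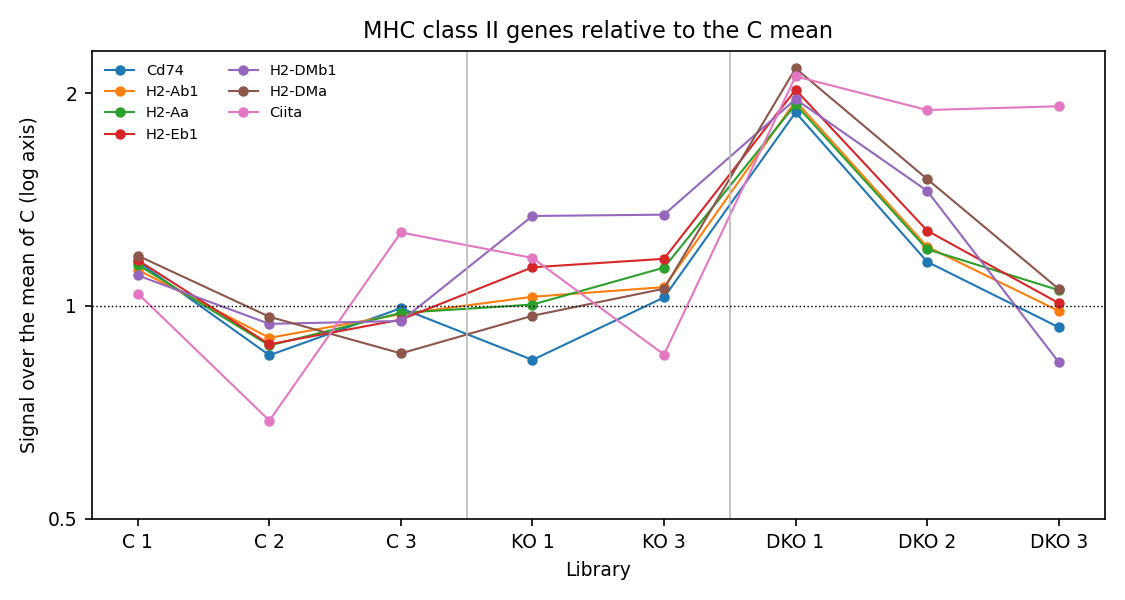
Signal of each gene divided by its mean over the C libraries (log axis) in the 8 libraries, ordered by group, with lines joining the values of a gene for reading only and grey lines between groups. All 7 genes stand at 1.88 to 2.17 in DKO 1, and in DKO 3 only Ciita, at 1.92, is away from the dotted line at 1 by more than 0.833 to 1.06.

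For KO against C, 0 of 7 genes passed limma, against a background of 13.9% of tested genes called, and 0 had an unadjusted p under 0.05, against 29.1%. Neither voom nor edgeR called any of them. Differences ran from -0.10 ± 0.26 (SE) for Cd74 (95% interval -0.67 to 0.48, limma, adjusted p = 0.848) to 0.36 ± 0.26 for H2-DMb1 (-0.21 to 0.92, limma, adjusted p = 0.399). For H2-Ab1 the interval was -0.45 to 0.59 and for Ciita -0.47 to 0.51, so these data do not show that the levels were alike. The groups' libraries did not overlap for 1 of 7 genes, H2-DMb1, where 54.3% of tested genes had no overlap and 27.5% had KO above C without overlap. Under quantile normalisation the signs of Cd74, H2-DMa and Ciita turned.

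For DKO against C, 0 of 7 genes passed limma, against 0.155% of tested genes called, 0.0738% higher and 0.0812% lower. Unadjusted p was under 0.05 for H2-DMa and Ciita, 2 of 7, against 8.5% of tested genes, while voom and edgeR called none after adjustment and had 2 and 4 at an unadjusted p under 0.05. Ciita differed by 0.74 ± 0.20 (SE), a 1.67-fold difference (limma, unadjusted p = 0.00317, adjusted p = 0.438), higher in 3 of 3 DKO libraries than in any C library. It was the 1 member with no overlap, where 13.8% of tested genes had no overlap and 6.5% had DKO above C without overlap. H2-DMa differed by 0.54 ± 0.22 (limma, adjusted p = 0.579), and the other 5 by 0.35 to 0.46, with 95% intervals reaching from -0.17 for Cd74 to 0.94 for H2-Eb1. The median of 0.43 became 0.64 without DKO replicate 3. Without DKO replicate 3 the 7 genes had adjusted p of 0.120 to 0.264. Without DKO replicate 2, the library rich in mitochondrial reads, the median was 0.51.

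DKO against KO uses the same DKO libraries and is not independent of the comparison with C. Here 0 of 7 genes passed limma, against 11.8% of tested genes called. Ciita differed by 0.71 ± 0.22 (SE), with adjusted p = 0.0591 in limma, 0.0448 with voom, 0.0792 with edgeR and 0.0444 without the intensity trend. Its call thus depended on the test, and leaving out single libraries gave adjusted p of 0.0621 to 0.350. It was 1 of 7 genes with DKO above KO without overlap, where 41.5% of tested genes had no overlap and 20.5% had DKO above KO, and the 1 gene with an unadjusted p under 0.05, against 28.9% of tested genes. The other 6 genes differed by 0.0038 for H2-DMb1 to 0.51 for H2-DMa, with adjusted p of 0.194 to 0.994.

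**Figure D3:**
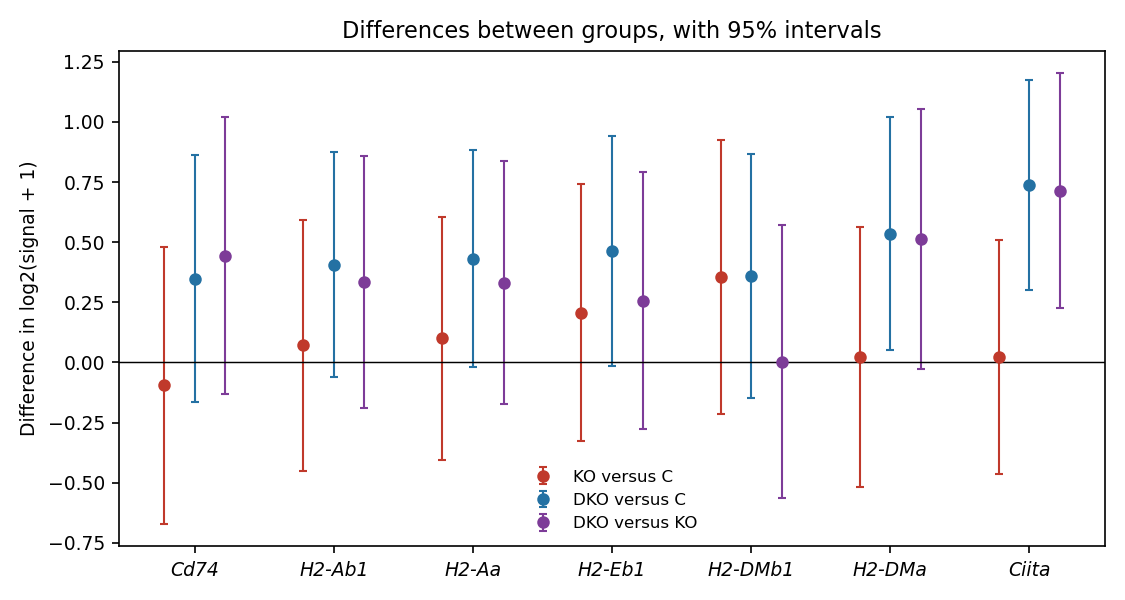
Differences in log2(signal + 1) between groups for the 7 genes from limma, with bars for 95% intervals that are not adjusted for the number of genes. The KO versus C intervals all cover 0, and the DKO versus C intervals of H2-DMa and Ciita lie above it.

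Around these genes, 3 of 10 tested genes of class II peptide supply and turnover rose in KO and 0 fell, against 6.9% of tested genes called higher and 7.01% lower. The median of this list was 0.45 in KO against C, beside 0.0082 over all tested genes. Ctss encodes cathepsin S, which trims the invariant chain in antigen presenting cells. It was 9.09, 8.95 and 6.77 in C, 22.5 and 17.1 in KO, and 12.5, 12.4 and 8.73 in DKO, and rose 2.25-fold in KO against C (limma, adjusted p = 0.0045, which became 0.0571 when KO replicate 1 was left out). Lgmn, encoding the lysosomal protease legumain, was 46.4 to 54.8 in C, 95.4 and 79.1 in KO and 42.7 to 60.2 in DKO. It rose by 0.77 ± 0.18 (SE) in KO (limma, adjusted p = 0.0156), a call that ended without C replicate 1, C replicate 3, KO replicate 1 or KO replicate 3, with adjusted p up to 0.138. March8, encoding a ubiquitin ligase that sends class II molecules for degradation, was 15.3 to 21.3 in C, 31.8 and 37.0 in KO and 18.9 to 19.6 in DKO. It rose by 0.91 ± 0.17 (SE) in KO (limma, adjusted p = 0.00557, which became 0.0812 when KO replicate 3 was left out). For all 3 genes both KO libraries were above every C and DKO library. Over all tested genes, 27.5% had KO above C without overlap, and 2854 of 13544 had DKO below KO without overlap.

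In DKO against KO, 3 genes of this list, Ctss, Lgmn and March8, fell and 1, Cd83, rose, against 5.73% of tested genes called lower and 6.08% called higher. In DKO against C, 0 of 10 passed limma and 1, Cd83, had an unadjusted p under 0.05, against 8.5% of tested genes. Cd83 encodes a surface protein that protects class II molecules from ubiquitination. It was 4.19, 3.71 and 3.55 in C, 2.93 and 2.83 in KO, and 5.63, 5.80 and 6.37 in DKO, with no overlap between the 3 groups. Of tested genes, 54.3% had no overlap between KO and C, 13.8% between DKO and C, and 41.5% between DKO and KO. The rise of Cd83 from KO to DKO was 0.84 ± 0.18 (SE, limma, adjusted p = 0.012). This call ended when KO replicate 1 or 3 was left out, with adjusted p of 0.0741 and 0.111. The falls of Ctss, Lgmn and March8 ended without KO replicate 3 (adjusted p = 0.0952, 0.0696 and 0.141), and those of Ctss and Lgmn without KO replicate 1 (adjusted p = 0.242 and 0.136). That of Ctss also ended without C replicate 1, C replicate 2 or DKO replicate 3, with adjusted p of 0.0506 to 0.0693. With only DKO and KO in the fit, the adjusted p was 0.0761 for Ctss and 0.0639 for Lgmn.

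Among the promoter factors, 0 of 7 genes of the RFX and NF-Y list passed limma in KO or DKO against C. An unadjusted limma p under 0.05 was found for 1 and 0 of them, against 29.1% and 8.5% of tested genes. In KO against C voom called 1 and edgeR 0, and in DKO against C both called 0. In DKO against KO 1 of 7, Rfxank, was called, where 6.08% of tested genes were called higher. Rfxank encodes an ankyrin repeat subunit of the RFX complex. It was 21.6, 23.2 and 24.9 in C, 14.9 and 17.4 in KO, and 21.9, 27.4 and 26.3 in DKO, so that both KO libraries were the lowest. Over all tested genes, 3621 of 13544 had KO below C without overlap and 20.5% had DKO above KO without overlap. Rfxank was higher in DKO than in KO by 0.61 ± 0.16 (SE, limma, adjusted p = 0.0319). Leaving out any of 6 libraries ended this call (each of C, each of KO, and DKO replicate 3), with adjusted p of 0.0525 to 0.21, and so did fitting only DKO and KO (adjusted p = 0.108). In the interferon gamma list, whose pathway induces Ciita, 0 of 9 genes passed limma as fitted, voom or edgeR in any comparison. An unadjusted limma p under 0.05 was found for 1, 1 and 3 genes in KO against C, DKO against C and DKO against KO. The shares over all tested genes were 29.1%, 8.5% and 28.9%. The smallest p of the list belonged to the receptor gene Ifngr2, at 63.2 to 74.5 in C, 104 and 106 in KO and 58.5 to 90.02 in DKO (KO against C, limma, adjusted p = 0.059). Ifngr2 passed with quantile normalisation (adjusted p = 0.0377), with only KO and C in the fit (0.00579) and without DKO replicate 2 (0.0142) or DKO replicate 3 (0.026), and leaving out other libraries gave up to 0.255. Without DKO replicate 3, DKO against KO had 2 of the 9 genes higher and 1 lower, where 809 genes over the whole table were called higher and 798 lower.

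Of 7 genes of co-stimulation and T cell contact, 1 fell in KO against C and 1 rose in DKO against KO, the same gene, Cd274, where 7.01% and 6.08% of tested genes were called in these directions. It encodes PD-L1, the ligand of an inhibitory T cell receptor. Cd274 was 10.9, 8.41 and 10.2 in C, 4.03 and 3.55 in KO, and 9.95, 11.3 and 8.27 in DKO, with KO below all others. As above, 3621 of 13544 tested genes had KO below C without overlap and 20.5% had DKO above KO. Cd274 fell by 1.17 ± 0.19 (SE) on the log2 scale in KO against C (limma, adjusted p = 0.0026) and rose by 1.17 ± 0.19 in DKO against KO (limma, adjusted p = 0.00342). It passed under every setting tried in both comparisons, with adjusted p up to 0.0491. Of the further class II chains, H2-Ob and H2-DMb2 were tested and neither passed limma, voom or edgeR or had an unadjusted limma p under 0.05 in any comparison. H2-Ob, the beta chain of the H2-DM inhibitor H2-O, was 2.02 to 2.87 in C, 1.89 and 2.78 in KO and 2.41 to 5.80 in DKO.

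**Figure D4:**
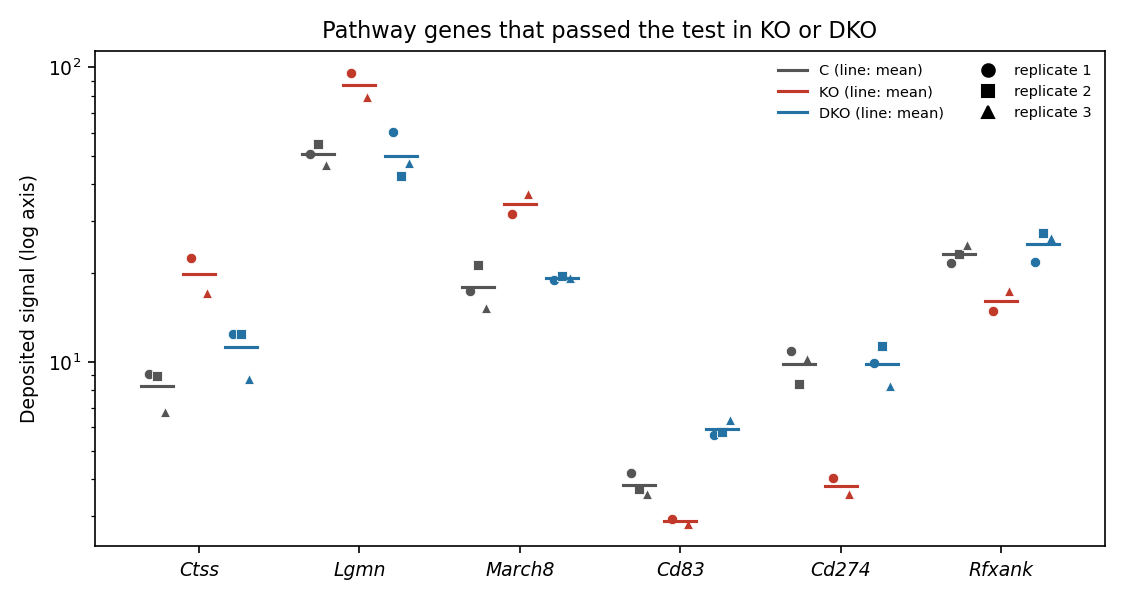
Deposited signal (log axis) of the 6 genes of the class II pathway lists that passed the test in at least 1 comparison, with points for libraries, coloured by group and shaped by replicate number, and lines at group means. Ctss, Lgmn and March8 are highest in KO, and Cd83, Cd274 and Rfxank are lowest there.

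Markers of leukocytes were read beside the class II genes. The 10 pan-leukocyte genes summed to 94.3 to 109 in C, 129 and 163 in KO and 113 to 139.6 in DKO, and 2 of 10, Laptm5 and Lcp1, rose in KO against C, where 6.9% of tested genes were called higher. The 15 macrophage genes summed to 249 to 266 in C, 331 and 350.5 in KO and 259.5 to 346 in DKO, with 2 of 15 higher in KO, against the same 6.9%. These were the chemokine receptor gene Ccr2, at 1.74 to 2.19 in C, 6.55 and 3.69 in KO and 1.296 to 3.93 in DKO (limma, adjusted p = 0.045), and C1qb, a complement C1q chain at 42.5 to 47.9 in C and 70.9 and 69.7 in KO. Of 12 dendritic cell genes 7 were in the table, without Flt3, Xcr1, Cd209a, Batf3 and Siglech. They summed to 37.8 to 42.5 in C, 31.8 and 33.8 in KO and 35.2 to 58.7 in DKO, and 1 of the 7, the integrin gene Itgax, rose in KO, again against 6.9%. Itgax was low, at 0.582, 0.271 and 0.154 in C and 1.87 and 1.09 in KO, and its C 3 value was below the signal of 3 reads (0.185). The largest part of the dendritic cell sum in every library was Zbtb46, at 20.7 to 26.8 in C, 15.5 and 15.6 in KO and 17.2 to 35.0 in DKO. Which cells Zbtb46 came from was not tested, so this sum may not measure dendritic cells. The lower KO sum therefore leans on 1 gene, and 3 of the 7 differences of KO from C were positive. The 7 B cell genes summed to 22.3 to 34.1 in C, 12.3 and 27.7 in KO and 30.3 to 48.2 in DKO. Of 7 T cell genes, Cd3d, Cd3e, Cd3g and Cd8a were not in the table, and the other 3 summed to 2.44 to 6.36 in the 8 libraries. Of 6 neutrophil genes, Ly6g, Retnlg and Cxcr2 were not in the table, and the other 3 summed to 15.6 in DKO 2 and 2.27 to 7.29 in the other libraries. In DKO against KO edgeR called 1 of these 3, S100a9 (adjusted p = 0.038), where it called 1678 genes over the whole table. Limma called 0 (S100a9, adjusted p = 0.0639, and 0.0201 without DKO replicate 1), with 1 at an unadjusted p under 0.05, against 28.9% of tested genes. In DKO against C, 0 genes of these lists passed limma, voom or edgeR. An unadjusted limma p under 0.05 was found for 3 pan-leukocyte, 2 macrophage, 1 dendritic cell and 2 B cell genes, against 8.5% of tested genes. In KO against C edgeR called 3 pan-leukocyte and 4 macrophage genes, where it called 2036 of 13544 tested genes. The calls of Laptm5, C1qb, Itgax and Ccr2 ended without any 1 of the C or KO libraries, and that of Lcp1 without any 1 of C or KO replicate 1, with adjusted p up to 0.36. That of Ccr2 also ended with voom (adjusted p = 0.052), quantile normalisation (0.0522) or a mean signal of at least 2 (0.0504). The call of Laptm5 also ended without the intensity trend, and that of Lcp1 without it or with quantile normalisation.

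Both KO libraries were above all C libraries in the pan-leukocyte sum but not in class II signal, whereas within DKO the order of the libraries was the same in both. H2-Aa, H2-Ab1, H2-Eb1 and Cd74 together came to 398, 301 and 340.1 in C, 326 and 371 in KO, and 665, 413 and 337 in DKO. Divided by the pan-leukocyte sum this was 3.65, 3.19 and 3.52 in C, 2.01 and 2.88 in KO, and 4.76, 3.27 and 2.97 in DKO. Both KO libraries lay below the others and DKO 1 above them. Divided by the macrophage sum it was 1.18 to 1.49 in C, 0.985 and 1.06 in KO and 1.24 to 1.92 in DKO, with KO lowest and DKO 1 highest. This order did not hold for other sums. Divided by the dendritic cell sum, class II signal was 7.97 to 9.38 in C, 9.67 and 11.7 in KO, and 16.7, 7.02 and 9.57 in DKO, with both KO libraries above C. Zbtb46, whose cell of origin was not tested, was the largest part of that sum in every library. The ratio without it was not computed, so this ratio may not speak of dendritic cells. Divided by the B cell sum, class II signal was 11.7 to 13.5 in C, 11.8 and 30.2 in KO, and 22.0, 8.56 and 8.97 in DKO, with KO 3 highest. In DKO 1 the B cell sum of 30.3 was inside the range of C and the macrophage sum of 346 above it. What part the numbers of these cells had in the class II levels was not tested.

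**Figure D5:**
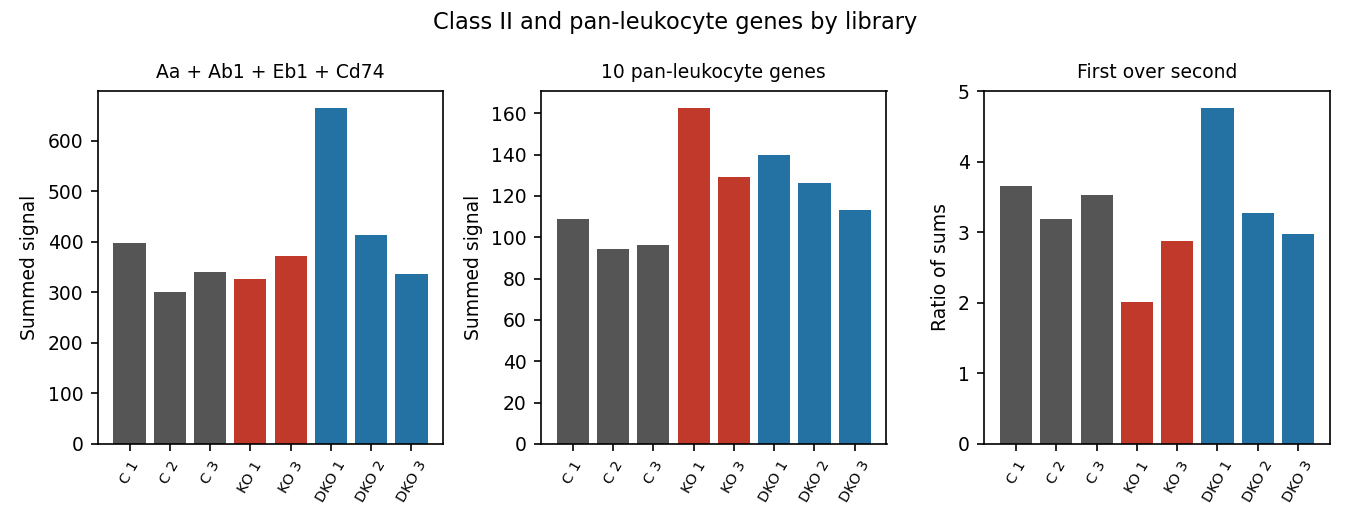
Summed signal of H2-Aa, H2-Ab1, H2-Eb1 and Cd74 (left), of 10 pan-leukocyte genes (middle) and their ratio (right) in each library, with bars in grey for C, red for KO and blue for DKO. DKO 1 has the highest class II sum (665) and ratio (4.76), and KO 1 the highest leukocyte sum (163) and lowest ratio (2.01).

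The genes whose profile was most like the mean profile of the 7 members were Krt10, Apoe, Tor4a, Trnp1, Lgi2, Pawr, Fgf2 and Evc. Likeness was the root mean square difference over the 8 libraries between log2(signal + 1) profiles, each centred on its own mean, and was 0.122 for Krt10 to 0.137 for Evc. The members themselves lay at 0.05 for H2-Ab1, 0.055 for H2-Aa, 0.067 for H2-Eb1, 0.0998 for H2-DMa, 0.113 for Cd74, 0.172 for H2-DMb1 and 0.277 for Ciita, and the median of all tested genes was 0.401. Ciita and H2-DMb1 lay farther from the mean profile than these 8 genes did. The 8 were picked as the closest of all tested genes outside the members, so this comparison tests nothing. The mean profile also holds the members themselves. Apoe, which encodes a lipid carrier secreted by macrophages and other cells, was 537, 398 and 379 in C, 420.2 and 476 in KO, and 816, 653 and 417 in DKO. DKO 1 was the highest library for Apoe too. These profiles share their libraries, depth and scaling.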

How the data were processed

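The authors deposited a table of normalised signal, and per the submitters' processing notes cutadapt, RSEM 1.3.1, limma and build GRCm38 were used, without roles; no source used here gives the annotation, strand setting or filter. Every deposited signal value was a whole number of reads plus 0.5, scaled to an effective library size (100% of values within 0.001 reads), so reads were recovered. A count of 0 allows up to 3 reads, equal to a signal of 0.104 to 0.283; this limit and the intervals cover counting error only. RSEM can split reads between near-identical genes. The chi-square between replicates was 13.6 to 253 per gene, above sampling noise, and no libraries were merged.

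A signal of 1 or more in 2 or more libraries was required, which left 13544 genes for limma 3.58.1 (R 4.3.3) on log2(signal + 1), with 3 group means over 8 libraries, 5 residual degrees of freedom, an intensity trend and Benjamini-Hochberg adjustment over all genes, at a threshold of 0.05. This scale understates changes of low genes. Voom, edgeR 4.0.16 on recovered reads and DESeq2 1.42.0 size factors were alternatives. Members and lists were chosen with earlier results of these data known. Named genes are the members, up to 4 passing genes per pathway list (otherwise the smallest p), up to 2 per marker list, and the 8 most similar profiles. H2-DMb2, Ccr2, Zbtb46, Myl7, Myl4, Sln, Ckm, Vhl, Brd2 and Dexi were named as well, after values were seen.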

Additional observations from a re-analysis of the deposited data

How the results depend on the processing

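None of the 7 members passed in KO or DKO against C under any setting tried; in DKO against KO the number called was 1, Ciita, with voom and 1 without the intensity trend, and 0 otherwise. Of 378 recomputed differences of members, 16 changed sign, 2 passed where the reported fit did not and 360 did neither. With quantile normalisation KO against C gave -0.053 for H2-DMa, 0.081 for Cd74 and -0.0071 for Ciita, and with the replicate number as a block -0.068 for Ciita. H2-DMb1 in DKO against KO was -0.0018 with a pseudocount of 0.5, -0.011 with median-of-ratios size factors and -0.0035 with the replicate block. Leaving out single libraries gave, in KO against C, -0.24 to 0.051 for Cd74, -0.14 to 0.17 for Ciita and -0.065 to 0.13 for H2-DMa, and in DKO against KO -0.23 to 0.29 for H2-DMb1 and -0.017 to 0.48 for H2-Eb1. The causes were not tested. Genes called over the whole table were 1883 in KO against C, 3606 with only the 2 groups in the fit, and 416 to 2973 without single libraries (894, 1047 and 984 without C replicate 1, 2 and 3, 756 and 416 without KO replicate 1 and 3, and 2973 when DKO replicate 2 was left out). For DKO against C the counts were 21, 7 with voom and 4 to 90 without single libraries (4 and 12 without C replicate 1 and 3, and 90 when DKO replicate 3 was left out). For DKO against KO the counts were 1599, 730 with only the 2 groups in the fit, and 310 to 1989 without single libraries (564 and 310 without KO replicate 1 and 3). Of 7 same-numbered pairs 5 had a correlation of deviations over 0.1 (0.104 to 0.219), while C 2 with DKO 2 was at -0.274 and DKO 1 with KO 1 at -0.012. Of the 6 C and DKO libraries 2 correlated best with their own number, and the labels name no shared litter or batch, so the numbers are not treated as pairs. With the replicate block 1794, 21 and 1269 genes were called in the 3 comparisons and 0 members, 4 members in place of 2 had an unadjusted p under 0.05 in DKO against C, and the calls of Rfxank, Psmb8 and Ighm in DKO against KO and of C1qb, Itgax and Laptm5 in KO against C ended, as did that of Myh4 in DKO against C. The last call also ended without C replicate 1, C replicate 3 or DKO replicate 2, with adjusted p up to 0.116. The 22 to 90 reads of Ciita limit its precision most.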

Other observations

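The MHC class I pathway, which shows peptides from the cytosol to CD8+ T cells and has NLRC5, a relative of CIITA, as its activator, was read beside class II. Of 16 genes 1 fell and 0 rose in KO against C, with a median of -0.29 on the log2(signal + 1) scale, where 7.01% of tested genes fell and the median of all was 0.0082. In DKO against C 0 passed limma, voom or edgeR (0 also at an unadjusted limma p under 0.05), and in DKO against KO 1 rose, where 6.08% of tested genes did. In DKO against KO 15 of 16 differences were positive, with a median of 0.37 beside 0.0079 over all tested genes. An unadjusted limma p under 0.05 was found there for 8 of 16, against 28.9% of tested genes. The gene that fell was Psme2, a subunit of the proteasome activator PA28, at 49.3 to 62.0 in C, 38.2 and 31.1 in KO and 47.6 to 51.6 in DKO (limma, adjusted p = 0.0193, and up to 0.202 without single libraries, ending without C replicate 1, C replicate 2 or KO replicate 3). The gene that rose in DKO against KO was Psmb8, an immunoproteasome subunit, at 17.8 and 15.3 in KO and 23.1 to 38.5 in DKO (limma, adjusted p = 0.0457, and up to 0.279 without single libraries, 6 of which ended the call: C replicates 2 and 3, DKO replicates 1 and 2, and both of KO). The macrophage gene Folr2 was 7.26 and 6.92 in KO and 10.5 to 15.1 in DKO, higher by 0.75 (limma, adjusted p = 0.0244), and the immunoglobulin heavy chain gene Ighm was 15.9 and 8.30 in KO and 20.2 to 27.7 in DKO, higher by 0.94 (limma, adjusted p = 0.0339). Leaving out KO replicate 3 ended both calls, with adjusted p of 0.172 and 0.35. That of Folr2 also ended without DKO replicate 1 or KO replicate 1 (adjusted p of 0.0525 and 0.109), and that of Ighm without C replicate 3 or DKO replicate 2 (0.0542 and 0.07). With only DKO and KO in the fit the adjusted p was 0.0714 for Folr2, 0.0664 for Ighm and 0.0788 for Psmb8.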
